A study of Mus musculus with 6 samples.

Results

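Mediator and cohesin are protein assemblies that connect enhancers with promoters. The rule took every gene of the deposited table whose symbol is Med followed by a number, with or without a final l, and 10 genes listed by name for cohesin, its loading and release factors and Ctcf. It found 38 of the 18312 genes in the table, of which 29 were Mediator genes and 9 were cohesin genes or Ctcf. No row carried the listed symbol Smc3 or the head subunit Med20, and neither was analysed here.

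The study sought mRNA targets of Brf1 (gene Zfp36l1) and Brf2 (gene Zfp36l2), proteins of the ZFP36 family that bind AU-rich elements in mRNA and recruit decay enzymes. Per the labels, its 6 libraries came from the mouse embryonic stem cell line E14 (129/Ola background, genotype wt), grown in 15% serum with 1000 U/ml LIF. RNA came from cytoplasmic extract after pull-down with an antibody against Brf1 and Brf2 (2 libraries), after pull-down with non-specific rabbit IgG (2 libraries), or directly as total RNA (2 libraries). The table analysed here holds 1 profile of 22625281 counts and names no library. It was therefore assigned to no group, and no comparison between groups was made. The levels below therefore show which transcripts were sampled, and neither binding nor cellular expression can be read from them.

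Mediator carries signals from DNA-bound transcription factors to RNA polymerase II. Its head and middle modules contact the polymerase, Med14 joins the modules as a scaffold, the tail receives most activators, and a detachable kinase module is built on Med12, Med13, cyclin C and Cdk8 or Cdk19. Cohesin is a ring of Smc1a, Smc3, Rad21 and a Stag subunit that holds sister chromatids together and extrudes DNA loops. Nipbl loads the ring, Wapl (Wapal in the table) with a Pds5 subunit releases it, and the zinc finger protein Ctcf stops it at loop anchors. In mouse embryonic stem cells, Mediator, cohesin and Nipbl are known to occupy the enhancers and promoters of active pluripotency genes together.

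FPKM scales a gene's count to its effective length in the table and to the total count. There are no replicates. Each interval on an FPKM is the authors' own and spans 2 square roots of the count to either side for the median gene, so it covers counting error only. FPKM was also computed on the model length, meaning the length of the transcript model itself. Over all genes with at least 1 FPKM that scale was higher by a median of 0.40 in log2, so a gene's shift is given relative to it. The 6 embryonic stem cell markers had at least 13.9 FPKM, with Pou5f1 highest at 605. Of 5 fibroblast markers, 2 reached 1 FPKM, Vim at 25.0 and Thy1 at 3.74. Of 4 measured primitive endoderm markers 1 did, Dab2 at 3.05. Of 4 measured neural markers 3 did, Tubb3 at 22.9, Nes at 20.1 and Pax6 at 2.38. Vim, Tubb3 and Nes thus lay above Klf4, the lowest of the stem cell markers.

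The cohesin genes and Ctcf were among the better represented genes of the profile. All 9 had at least 16.3 FPKM, and the lowest of them, Nipbl, ranked 3602nd of all genes. Their median was 40.7 FPKM, against 11.2 for the 29 Mediator genes and 9.66 for all genes with at least 1 FPKM. At least 1 FPKM was reached by 37 of the 38 members, against 56% of all genes, and at least 5 FPKM by 35, against 38.3%. On the model length 58.2% of all genes reached 1 FPKM and 42.2% reached 5, and all 38 members reached 1. Together the 38 genes held 89831 counts, or 0.397% of the total (Wilson 95% interval 0.395 to 0.400). No member was at 0 counts, and the lowest count was 245, for Med31.

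**Figure D1:**
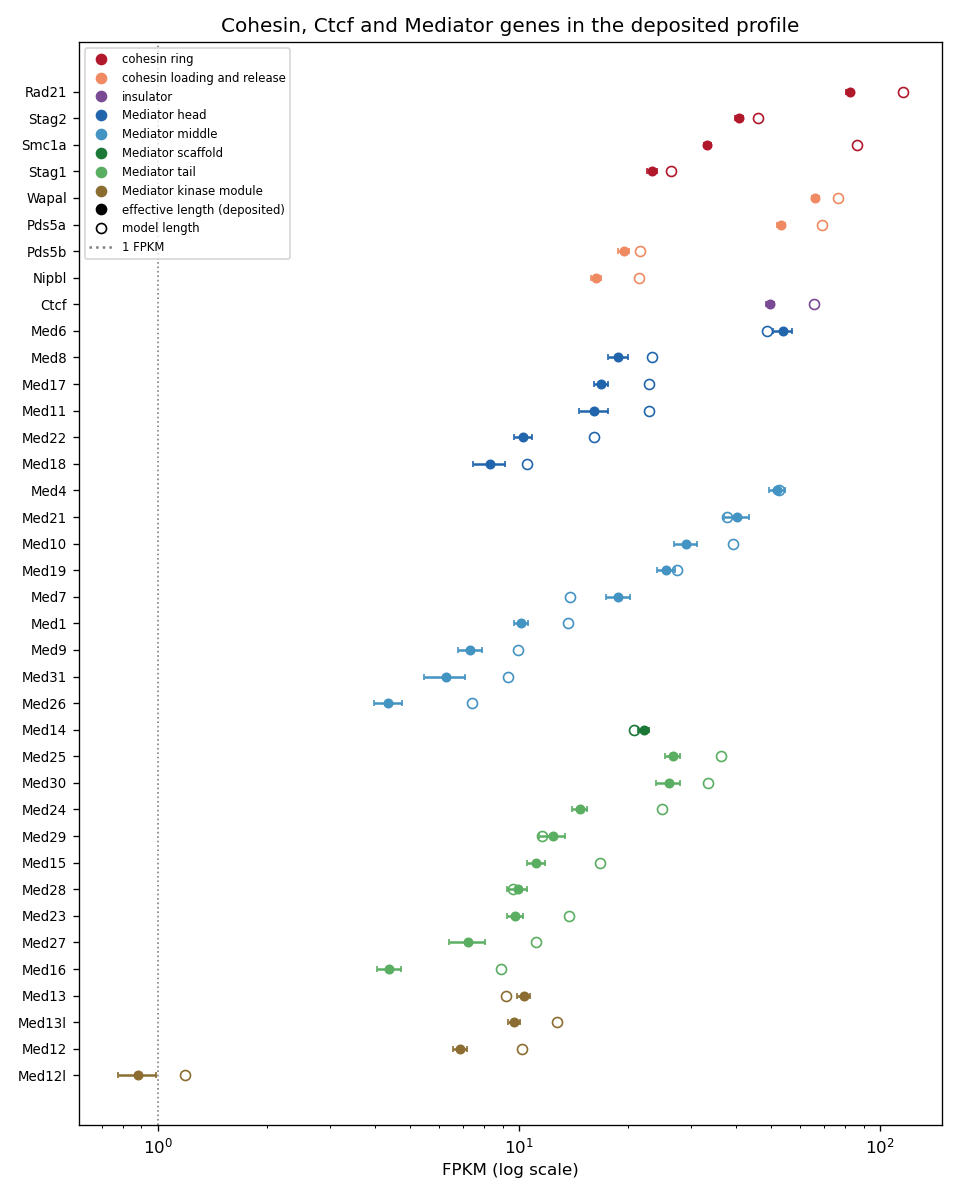
FPKM of the 38 members on a log axis, grouped by role. Filled points are deposited values with the authors' interval, and open points are values on the model length. Rad21 is farthest to the right at 82.3 FPKM, and Med12l alone lies under 1 FPKM, at 0.881.

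Among the ring subunits, Rad21, the kleisin that closes the ring and is cut by separase at anaphase, had 82.3 FPKM (80.6 to 84.0, 9421 counts). It ranked 720th of all genes and was the highest of the 38 members on both length scales. Smc1a, an ATPase arm of the ring, had 33.2 FPKM (32.5 to 34.0, 7769 counts). Its level had the largest log2 shift between the length scales among the 38 members. On the model length Smc1a had 86.5 FPKM, a shift of 0.98 in log2 beyond the median shift, and came second to Rad21 among the 9 genes instead of sixth.

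Stag1 and Stag2 are alternative subunits, of which a ring holds 1, and Stag2 is the main form in most somatic cells. Stag2 had 40.7 FPKM (39.7 to 41.7) and Stag1 had 23.3 (22.6 to 24.1). The ratio of Stag2 to Stag1 was 1.74 (exact 95% counting interval 1.67 to 1.82), and on the model length it was again 1.74.

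Of the loading and release factors, Wapal had the most, 66.1 FPKM (64.7 to 67.6), and Nipbl the least, 16.3 (15.8 to 16.8). Wapal opens the ring and Nipbl loads it, and the ratio of Wapal to Nipbl was 4.05 (3.91 to 4.21), or 3.55 on the model length. Mau2, the partner of Nipbl in the loader, had 10.9 FPKM, and the ratio of Nipbl to Mau2 was 1.49 (1.41 to 1.58). Pds5a and Pds5b both bind the ring and serve its release as well as its protection. Pds5a had 53.2 FPKM (51.9 to 54.5) and Pds5b 19.5 (18.8 to 20.1), a ratio of 2.73 (2.62 to 2.85) that was 3.21 on the model length. Ctcf had 49.5 FPKM (48.1 to 50.8) and ranked 1269th. No interval of the 9 genes overlapped that of its neighbour in the order of deposited FPKM. Of the 8 neighbouring pairs, 1 overlapped on the model length, Pds5b at 21.6 and Nipbl at 21.5.

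The germline forms of the same proteins were much lower. Rec8, Rad21l, Smc1b and Stag3 replace Rad21, Smc1a and Stag1 or Stag2 in meiotic cohesin, and Ctcfl is the germline paralogue of Ctcf. Their median was 1.51 FPKM. On both length scales 3 of the 5 reached 1 FPKM, near the 56% of all genes, and on the deposited scale none reached 5. Stag3 was highest at 2.83 FPKM (454 counts), Smc1b had 0.626 (68 counts), and Rad21l was lowest at 0.200 (9 counts). The ratio of Ctcf to Ctcfl was 32.8 (28.3 to 38.3), that of Rad21 to Rec8 was 43.7 (37.6 to 51.1) and that of Smc1a to Smc1b was 53.0 (41.8 to 68.4). Stag2 exceeded Stag3 by 14.4-fold (13.1 to 15.9). Each of these 4 somatic genes was also the higher on the model length, by 26.6, 31.04, 116 and 9.68-fold in the same order.

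**Figure D2:**
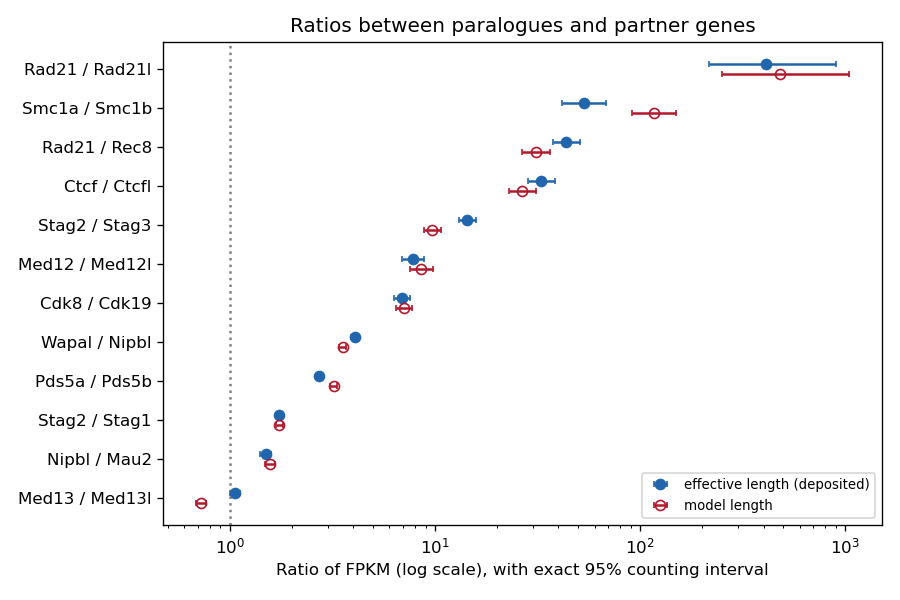
Ratio of FPKM between paralogues or partners on a log axis, on the effective length (filled) and the model length (open), with exact 95% counting intervals. Med13 over Med13l lies at 1.06 on the effective length and at 0.724 on the model length, on the other side of 1, and the germline forms give the largest ratios.

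Mediator genes were spread more widely than the cohesin genes, and most were lower. They ran from 0.881 FPKM for Med12l to 53.7 for Med6, a 60.95-fold range that fell to 12.4-fold without Med12l, and 23 of the 29 lay between 5 and 30 FPKM. The 8 cohesin genes and Ctcf spanned 5.04-fold. On the model length the Mediator range was 44.1-fold, or 7.08-fold without Med12l, against 5.36-fold for cohesin and Ctcf. Such a range also tends to widen with the number of genes, here 29 against 9. All 9 lay above the Mediator median on both length scales. The ratio of the cohesin and Ctcf median to the Mediator median was 3.65, or 4.73 on the model length. Of the Mediator genes, 11 exceeded Nipbl, the lowest cohesin gene, on the deposited scale, and only Med6 and Med4 exceeded the cohesin and Ctcf median. No Mediator gene did on the model length. No test was made of this difference, since the genes of 1 profile are not replicates.

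The 6 measured head subunits had a median of 16.5 FPKM. Med6, an essential head subunit at the border with the middle module, was far above the others at 53.7 FPKM (50.5 to 56.9, 1103 counts). Med8 had 18.8 FPKM, Med17, the head's central subunit, had 16.8 and Med11 had 16.1, and the intervals of Med17 and Med11 overlapped. Med22, the partner of Med11, had 10.3, and Med18 was the lowest head subunit at 8.30 (7.47 to 9.13, 399 counts).

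Middle subunits covered almost the whole range of the complex once Med12l, a kinase module subunit, was left out. Med4 had 51.9 FPKM (49.2 to 54.5), whose interval overlapped that of Med6, and Med21 had 40.1 (37.0 to 43.2). Med10 followed at 29.0, Med19 at 25.5 and Med7 at 18.8. Over all its annotated transcripts Med10 shares 92.8% of its exon bases with the opposite-strand noncoding gene Gm26819. Its longest coding transcript, of 913 nt, aligned to that gene over 506 nt (55.4%). Med1, the subunit that binds nuclear receptors and is widely used to mark enhancers, had 10.1 FPKM (9.69 to 10.6, 2019 counts). Med9 had 7.32, Med31 6.27 and Med26, which recruits elongation factors, 4.34 (3.96 to 4.73, 510 counts). The middle median was 18.8 FPKM on the effective length and 13.8 on the model length, so the middle module lay above the head on the first scale and below it on the second, where the head median was 22.9. Relative to the median shift Med7 moved most among these, by -0.84 in log2, to 13.8 FPKM on the model length. Med14, the scaffold, had 22.1 FPKM (21.3 to 22.9), and 20.8 on the model length.

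The 9 tail subunits had a median of 11.2 FPKM. Med25 was highest at 26.6 FPKM (25.4 to 27.9) and Med30 next at 25.9 (23.9 to 28.0), with overlapping intervals. Med24 had 14.7, Med29 12.4 and Med15, a large activator-binding subunit, 11.2 (10.5 to 11.8). Med28 had 9.92 FPKM, Med23, which binds the Erk-responsive factor Elk1, had 9.76 (9.26 to 10.3), and Med27 had 7.22. Med16 was lowest at 4.37 FPKM (4.03 to 4.72) but reached 8.90 on the model length, a shift of 0.62 in log2 beyond the median.

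The kinase module had the lowest median of the Mediator modules, 8.27 FPKM over its 4 Med genes. Med12, which activates the kinase, had 6.87 FPKM (6.56 to 7.18, 1949 counts). Its paralogue Med12l had 0.881 (0.775 to 0.987, 276 counts), a ratio of Med12 to Med12l of 7.80 (6.87 to 8.88). In the current annotation Med12l shares 1948 exon bases, 15.3% of its own, with Igsf10 on the opposite strand, which had 290 counts. Strand handling is not given in the sources used here, so reads from the shared bases cannot be told apart. Med12 itself shares 749 exon bases, 9.72% of its own, with Gm21986 on the same strand, where strand would not separate the reads.

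Med13 and Med13l, alternative links between the kinase module and the core, were almost level. Med13 had 10.3 FPKM (9.87 to 10.7) and Med13l 9.68 (9.30 to 10.1), with overlapping intervals and a ratio of 1.06 (1.01 to 1.12). The order turned round on the model length, with a ratio of 0.724 (0.685 to 0.765). The other subunits of the module were mostly higher than its Med genes. Cdk8 had 31.8 FPKM (30.4 to 33.2), cyclin C (Ccnc) had 22.8 (21.4 to 24.1) and Cdk19, the paralogue of Cdk8, had 4.61 (4.25 to 4.97). The ratio of Cdk8 to Cdk19 was 6.90 (6.32 to 7.54). Scaled to the model length, Ccnc had 14.7 FPKM and Cdk8 had 36.1.

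Intervals of neighbours in the Mediator order often overlapped, which alone does not show that their levels were the same. Those of Med13 and Med13l overlapped, for example, although their ratio interval on the deposited scale, 1.01 to 1.12, lay above equality. Of 28 neighbouring pairs, 19 had overlapping intervals, and on the model length 22 did. The longest such run held 8 genes from Med29 at 12.4 FPKM down to Med13l at 9.68, each overlapping the next, and on the model length the longest run held 13. Med21 and Med14 stood clear of their neighbours on both sides on the deposited scale, which neither did on the model length.

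Lists of related genes put these levels in context. The lowest of 11 measured RNA polymerase II subunits, Polr2i, had 18.9 FPKM, and their median was 58.2, while the 11 measured general initiation factors had a median of 28.2. Of the 29 Mediator genes, 28 reached 1 FPKM and 26 reached 5, but their median of 11.2 FPKM lay below every one of the 11 initiation factors, the lowest being Gtf2a1 at 12.6. Gtf2a1 at 11.1 lay, on the model length, below the Mediator median of 13.8. The cohesin and Ctcf median of 40.7 was close to that of condensin genes and Smc6, cohesin's relatives, at 31.5 over 9 measured genes, led by Smc4 at 91.5. The 6 measured further regulators of cohesin had a median of 23.0 FPKM. The securin Pttg1, which restrains separase, had 61.3 FPKM, the acetyltransferase Esco2 had 52.9, separase (Espl1) had 21.0 and the Smc3 deacetylase Hdac8 was lowest at 4.68.

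**Figure D3:**
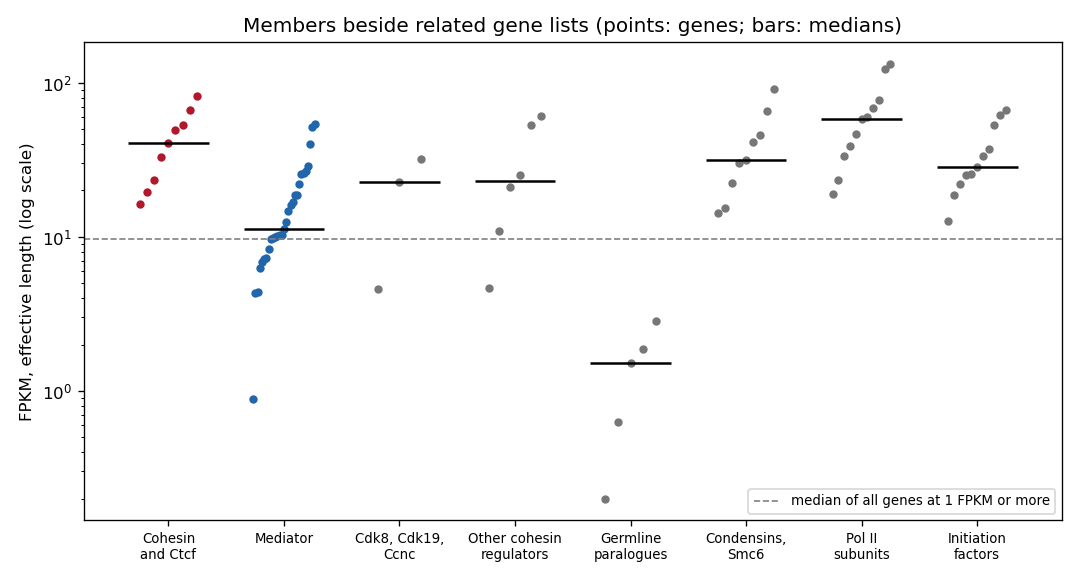
Deposited FPKM of each gene (points) and list medians (bars) on a log axis, with the median of all genes at 1 FPKM or more (dashed, 9.66). Cohesin and Ctcf genes have a median of 40.7 and Mediator genes one of 11.2, and the germline paralogues lie lowest with a median of 1.51.

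Short transcript models had a higher median level among Mediator genes, a pattern noticed after the values were seen. The 8 genes with models of 1400 nt or less, had a median of 27.5 FPKM and ran from 6.27 for Med31 and 7.22 for Med27 to 53.7 for Med6. The 15 of intermediate length had a median of 11.2, and the 6 with models over 6000 nt, which include Med1, Med12 and Med13, one of 9.91. All genes with at least 1 FPKM showed medians of 18.7, 9.10 and 7.16 in the same classes. Across the 29 Mediator genes, Spearman's rho between FPKM and model length was -0.478 (-0.522 with FPKM on the model length). Across the 10257 genes with at least 1 FPKM it was -0.190 (-0.206 with FPKM on the model length). The Mediator medians and rho include Med12l, at 0.881 FPKM and 10245 nt, a gene that the filter leaves out of the wider set. Genes are not independent replicates, the length also enters FPKM itself, and no test was made. Cohesin genes and Ctcf were higher as a set, with a median of 40.7 FPKM although the shortest of their 9 models, that of Rad21, had 3605 nt. Within the set the shortest model, Rad21, was also the highest at 82.3 FPKM. The longest, Nipbl at 8815 nt, was the lowest at 16.3.

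**Figure D4:**
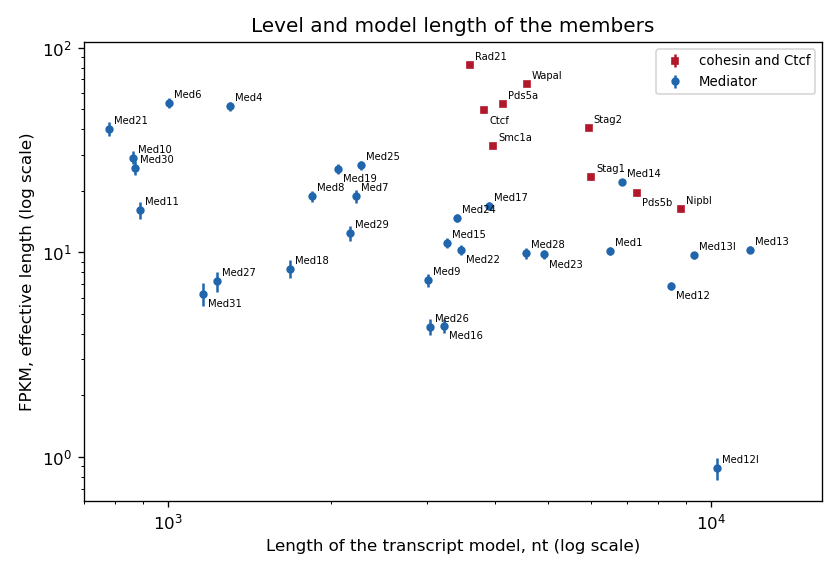
Deposited FPKM against the length of the transcript model, both on log axes, for Mediator (circles) and cohesin genes with Ctcf (squares); bars are the authors' intervals. Mediator genes with short models run from Med31 (6.27 FPKM) to Med6 (53.7) and Med12l (0.881) lies lowest, while most cohesin genes lie above Mediator genes of similar length, with Med14 (22.1) above Pds5b (19.5) as an exception.

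ZFP36 proteins bind AU-rich sequence, whose core heptamer in DNA letters is TATTTAT, within the longer nonamer TTATTTATT. The longest annotated 3′ untranslated region of each gene in GENCODE M21 was searched on the sense strand, with overlapping matches counted. The heptamer was found 20 times in 15 of the 38 members. A match is a description of sequence and says nothing of binding in these cells. The share was 31% among Mediator genes (9 of 29) and 66.7% among cohesin genes and Ctcf (6 of 9), against 29.2% of the 17528 genes with a region. In the shortest annotated region the cohesin and Ctcf count was 2 of 9 (22.2%), against 19.8% of all genes, so the gap seen in the longest region was largely absent there. In the transcript closest in length to the model it was 4 of 7 (57.1%), against 24.3%.

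Cohesin regions were also longer, with a median of 1899 nt against 979 nt for Mediator and 1050 nt for all genes. Among genes with a region of 1500 nt to under 3000 nt, the motif was present in all 5 cohesin genes, in 1 of 4 Mediator genes and in 42.4% of 4124 genes in the whole table. In regions of 3000 nt or more it was present in Pds5a, in all 4 Mediator genes and in 64.9% of 2534 genes. From 500 nt to under 1500 nt it was present in 0 of 3 genes of the cohesin set, in 2 of 12 Mediator genes and in 23.7% of 5801 genes. Under 500 nt it was present in 2 of 9 Mediator genes and in 6.83% of 5069 genes. The 3 members of the cohesin set without it, Smc1a, Nipbl and Ctcf, had regions of 885, 608 and 1303 nt. The shorter core ATTTA occurred in all 8 cohesin genes and Ctcf, in 20 of 29 Mediator genes and in 67.5% of all genes. These length classes were chosen after the values were seen, and no test was made.

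The 7 matches in cohesin genes are printed with their flanks because they are the matches counted in the longest regions. Each is given 5′ to 3′ from GENCODE M21 transcripts (GRCm38), on the mRNA's own strand, with the heptamer in capitals.
Rad21, site 1: ggcttctctgaTATTTATtataaatgtta
Stag1, site 1: aggtttattttTATTTATaagtgggcata
Stag2, site 1: agtaaatatttTATTTATgcgctgttagt
Stag2, site 2: ttgctgatttgTATTTATgtcttgagaca
Pds5a, site 1: aaacagcactgTATTTATtccttgtttga
Pds5b, site 1: ttcattggaaaTATTTATggaaatatatg
Wapal, site 1: aaatacattgaTATTTATtaatcattgga
They began 827 nt after the stop codon in Rad21, 671 in Stag1, 238 and 1844 in Stag2, 3963 in Pds5a, 1986 in Pds5b and 1725 in Wapal. None of the 7 extended to the full nonamer, which needs a T on both sides of the heptamer. The Wapal site was absent from the annotated transcript closest in length to the table's model, and Pds5a had no transcript within 10% of its model.

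The nonamer was found in 5 members, all of them Mediator genes, or 17.2% of the 29, against 8.06% of all genes. In the shortest regions 3 of 29 (10.3%) had it, against 5.39% of all genes, and in length-matched transcripts 2 of 22 (9.09%), against 6.21%. Med1, Med13 and Med25 had no transcript within 10% of their model. These sites are printed because the nonamer is the high-affinity form for ZFP36 proteins, and a t on both sides of the capitals completes it.
Med18, site 1: ttttattccttTATTTATttgttgttttc
Med25, site 1: atggctagcttTATTTATtggtggtggtg
Med1, site 1: attattttagtTATTTATttgtaatattt
Med13, site 1: cctgcatctctTATTTATtgtaagttttt
Med13, site 2: tttgactttttTATTTATtgaattttctt
Med13l, site 1: tgcattctgttTATTTATttttcattttg
Med13 and Med13l thus each had the nonamer, in regions of 3953 and 2605 nt. Med12l had 3 heptamers and 23 copies of ATTTA in 3933 nt, while Med12 had 1 of each in 235 nt. Levels of the 5 genes ran from 8.30 FPKM for Med18 to 26.6 for Med25.

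**Figure D5:**
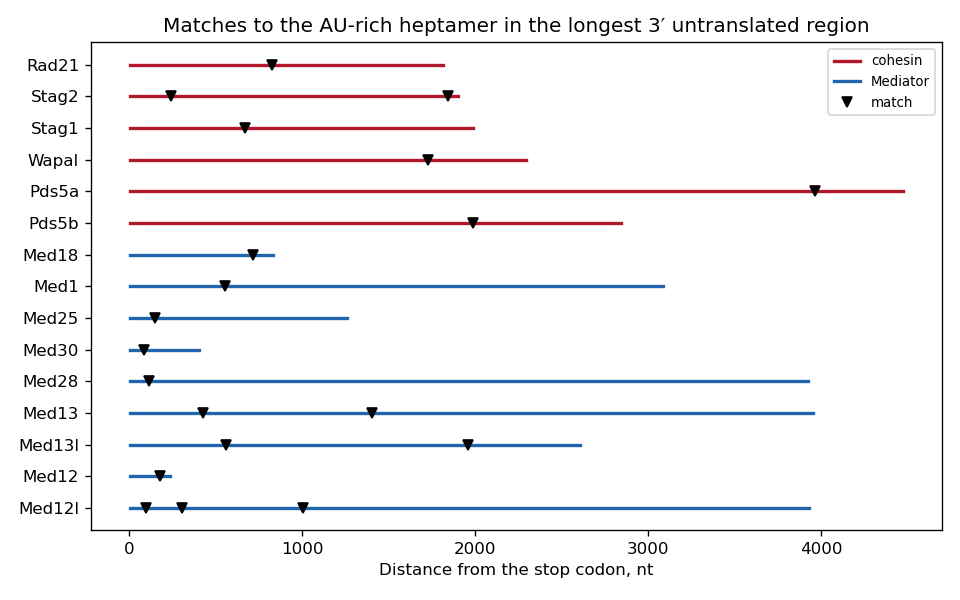
Longest annotated 3′ untranslated region of the 15 members with the heptamer, as distance from the stop codon in nt, with each of the 20 matches marked. Cohesin genes are above and Mediator genes below, and Med12l has the most matches, 3.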

How the data were processed

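The submitters' processing notes name eXpress 1.1.1, Bowtie 1.1.2, CASAVA 1.8.2 and mm9, with settings not given in the sources used. The authors deposited total and unique counts, which are equal in every row, estimated counts, and FPKM with bounds, per the file headers. The row without a gene name holds the sum of all 18312 gene rows (22625281) and was left out. FPKM was recomputed from counts and effective length with a relative error of at most 0.000173.

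Members and lists were chosen with earlier results of these data known. Every member is named or counted. Of the other lists only some genes are named, not always the highest and the lowest. Ratios carry exact (conditional binomial) 95% intervals. Intervals cover counting error only. The ratio interval and the motif search were tested on simulated data. Of 18312 symbols, 18149 matched GENCODE M21 (1287 by 1 RefSeq synonym, Wapal among them); 17528 genes had a 3′ untranslated region of 50 nt or more. That annotation is on GRCm38, so no coordinates are printed. Transcripts were compared with BLAST+ 2.17.0 (at least 90% identity over 300 nt): Med4 had a processed pseudogene copy at 96.4% identity over 813 nt, and counts shared with it are uncertain. Exon bases were taken over all annotated transcripts of a gene. The share with an opposite-strand gene was 92.8% for Med10, 26.3% for Med31, 21.2% for Med7, 12.7% for Med26 and 11.9% for Med19. Med21 shared 9.88% with Gm6654 and 5.59% with Tm7sf3, which had 1538 counts. Reads from shared bases cannot be assigned without strand. Modules follow common structural schemes. Alternatives were the model length, a threshold of 5 FPKM, a minimum of 10 counts, other module borders, regions and motifs. The planned group comparisons were not run, as the table names no library. Software was Python 3.11.15 with scipy 1.17.1, pandas 2.3.3, numpy 2.4.6 and matplotlib 3.10.9.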

Additional observations from a re-analysis of the deposited data

How the results depend on the processing

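No paired analysis was possible because no column names a library, and leaving out libraries was not possible for the same reason. Counts of members at 1 FPKM or more stayed within 1.5 times under each alternative. On the model length the medians were 13.8 FPKM for Mediator, 65.4 for cohesin and Ctcf (ratio 4.73), 22.9 for the head, 13.8 for the middle, 20.8 for Med14, 13.7 for the tail and 9.71 for the kinase module. The ratio of Pds5a to Pds5b was then 3.21, and that of Med13 to Med13l turned round to 0.724. These changes follow from the lengths alone, since the counts are the same. With Med27 to Med30 counted in the head, as in some schemes, the head median was 14.3. The model length put 30 of the 38 members above their interval, 4 below and 4 inside. The same share over all genes was not computed. All genes with at least 1 FPKM rose by a median of 0.40 in log2 on this scale, and 19 of the 38 members shifted by more than that. The heptamer was found in 15 members in the longest region (39.5%, against 29.2% of all genes) and in 8 in the shortest (21.1%, against 19.8%). In the transcript closest in length to the model it was found in 8 of 29 (27.6%, against 24.3%). That alternative was added after the data were seen. In the longest region ATTTA was found in 29 members (76.3%, against 67.5% of all genes) and the nonamer in 5 (13.2%, against 8.06%). The cause of the differences between regions was not tested.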

Other observations

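The effective length of Smc1a was 2.60 times its model length, and 27 of the 10257 genes with at least 1 FPKM had a higher ratio. For the 8 cohesin genes and Ctcf the median ratio was 1.30, and for Mediator genes it was 1.35, with Med7 lowest at 0.735.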
